A study of Mus musculus with 12 samples.

Results

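Nephronectin and the alpha chain of its integrin receptor were described in cultured mouse colonic myofibroblasts with and without tumor necrosis factor receptor 1 (TNFR1). The members are the genes Npnt and Itga8, 2 of the 24411 gene symbols counted. They were picked by name as a ligand and receptor pair, with their difference between the genotypes already known. That difference is therefore given as a description, with no test. RNA was sequenced from primary myofibroblasts of the distal colon of C57BL/6 mice aged 16 weeks, at passage 6 to 8 and at day 5 of culture in Matrigel, without treatment. There were 6 libraries from TNFR1-/- mice (knockout) and 6 from heterozygous TNFR1+/- mice (control), so the control cells also carry 1 disrupted allele. The labels do not tell separate animals or cultures apart, and p-values below measure only the spread between these libraries, which may be technical.

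Nephronectin is a secreted protein of basement membranes with EGF-like repeats, an RGD sequence that integrins read, and a MAM domain. Its receptor is integrin alpha8beta1, in which the alpha8 chain pairs only with beta1 and which also binds fibronectin, vitronectin, tenascin C and osteopontin. In the developing kidney this ligand and receptor pair is needed for the mesenchyme to make GDNF, and in skin it helps anchor the arrector pili muscle to the hair follicle. In adult tissues the alpha8 chain is known from contractile mesenchymal cells such as smooth muscle, mesangial cells and stellate cells. In cultured osteoblasts TNF has been reported to lower nephronectin, which is given here as background only.

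Total counts per library were 6543013 to 9937008 in the knockout group and 11890729 to 16458689 in the control group. By rank correlation across genes the libraries fell into 4 sets, with the first 4 knockout libraries in one, knockout 5 and 6 in another, control 1 to 5 in the next and control 6 by itself (0.989 to 0.998 within sets and 0.884 to 0.976 between sets). The ribosomal RNA precursor Rn45s took 7.01% and 8.25% of the counts in knockout 5 and 6 and 0.351% to 2.1% in the other libraries. Tnfrsf1a, the targeted gene, ran from 40.6 to 46.1 CPM (counts scaled by library size) in the libraries of the knockout group, against 54.9 to 81.3 CPM in the controls. A gene-level count does not show which exons were read. All 8 myofibroblast markers passed the filter on low counts. Of 8 epithelial markers, Epcam, Cdh1 and Cldn7 had at most 1 count in any library, while Krt19 (52 to 169 counts) and Krt20 (8 to 116 counts) were read in all, and the 8 summed to 7.42 to 23.1 CPM.

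Npnt was higher in every knockout library than in any control library, and Itga8 was higher in only 4 of the 6 knockout libraries. Npnt averaged 103 ± 12.1 CPM in knockout and 9.77 ± 8.25 CPM in control (SD, n = 6 each). Itga8 averaged 22.2 ± 15.9 CPM in knockout and 4.08 ± 5.17 CPM in control (SD, n = 6 each). For Itga8 the knockout SD spans a wide gap, since knockout 5 and 6 sat at the level of control 1 to 5. In these bulk cultures fewer cells of a type and less RNA per cell cannot be told apart.

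The ligand Npnt stood at 113, 116, 87, 111, 96.3 and 92.8 CPM in knockout 1 to 6. In control 1 to 6 it stood at 7.38, 5.05, 7.4, 7.28, 5.06 and 26.5 CPM. The knockout libraries lay close together, control 6 was the highest control, and the groups did not overlap, which was also so, with knockout higher, for 10.6% of the 12146 genes tested. The lowest knockout library was 3.29 times the highest control. Control 6 was 3.58 times the next highest control and 4.11 times the mean of control 1 to 5.

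In order of level, knockout 1 to 4 (107 ± 13.3 CPM, SD, n = 4) and knockout 5 and 6 (mean 94.6 CPM) overlapped in their values. They were followed by control 6 and then by control 1 to 5 (6.43 ± 1.26 CPM, SD, n = 5). The ratio of set means was 16.6 for knockout 1 to 4 over control 1 to 5 and 14.7 for knockout 5 and 6 over control 1 to 5. Against control 6 these ratios were 4.03 and 3.57. Against a given control set the knockout sets thus had similar factors, which were smaller against control 6 than against control 1 to 5. The order seen for Npnt, with all knockout libraries above control 6 and control 6 above the other controls, was shared by 730 genes, or 6.01% of those tested.

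The receptor chain Itga8 stood at 35.2, 30.3, 29.9, 34.1, 1.35 and 2.17 CPM in knockout 1 to 6. In control 1 to 6 it stood at 2.05, 1.88, 2.1, 2.17, 1.63 and 14.6 CPM. Knockout 1 to 4 were high, control 6 was intermediate, and knockout 5 and 6 were among the low controls, so the groups overlapped. The low values rest on 13 and 21 counts in knockout 5 and 6 and on 20 to 31 counts in control 1 to 5. Their exact Poisson 95% intervals, which cover counting error only, were 0.718 to 2.31 CPM for knockout 5 and 1.35 to 3.32 CPM for knockout 6. A difference of knockout 5 and 6 from control 1 to 5 was not detectable at this depth.

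In order of level, Itga8 ran from knockout 1 to 4 (32.3 ± 2.65 CPM, SD, n = 4) to control 6 and then to control 1 to 5 (1.97 ± 0.215 CPM, SD, n = 5) and knockout 5 and 6 (mean 1.76 CPM). The last pair of sets overlapped. Set means of knockout 1 to 4 were 16.4 times those of control 1 to 5, 18.4 times those of knockout 5 and 6 and 2.21 times control 6. Control 6 was 7.44 times the mean of control 1 to 5 and 8.31 times the mean of knockout 5 and 6. This order, with knockout 1 to 4 above control 6 and control 6 above all other libraries, was shared by 421 genes, or 3.47% of those tested.

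**Figure D1:**
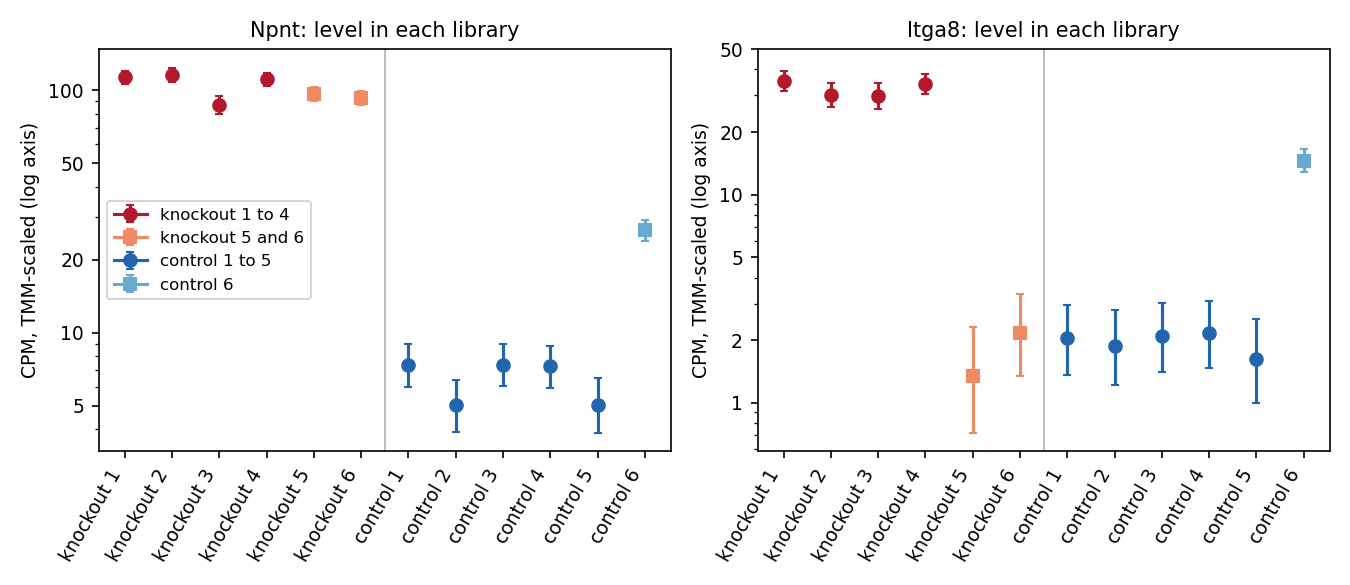
Level of Npnt (left) and Itga8 (right) in each of the 12 libraries, in CPM on log axes. Points are single libraries coloured by set and bars are exact Poisson 95% intervals; Npnt lies at 87 to 116 CPM in all knockout libraries, while Itga8 is at 1.35 and 2.17 CPM in knockout 5 and 6 and at 14.6 CPM in control 6.

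The fitted log2 difference, knockout minus control, was 3.38 (SE 0.38) for Npnt and 2.41 (SE 0.81) for Itga8, against a median of 0.02 over all tested genes. Among 10692 tested genes whose mean log2 CPM reached 2, counted from the largest rise, Npnt ranked 7 and Itga8 ranked 36. Leaving out control 6 raised these differences to 3.99 and 3.48. Leaving out knockout 5 and 6 gave 3.43 for Npnt and 2.95 for Itga8, and leaving out these 3 libraries together gave 4.05 and 4.04. With the counts summed within the 4 sets, so that 2 sums stood against 2, the differences were 2.64 and 1.09. Npnt kept a difference of at least 2.64 under every choice tried, whereas the size for Itga8 depended on how the sets were weighted.

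**Figure D2:**
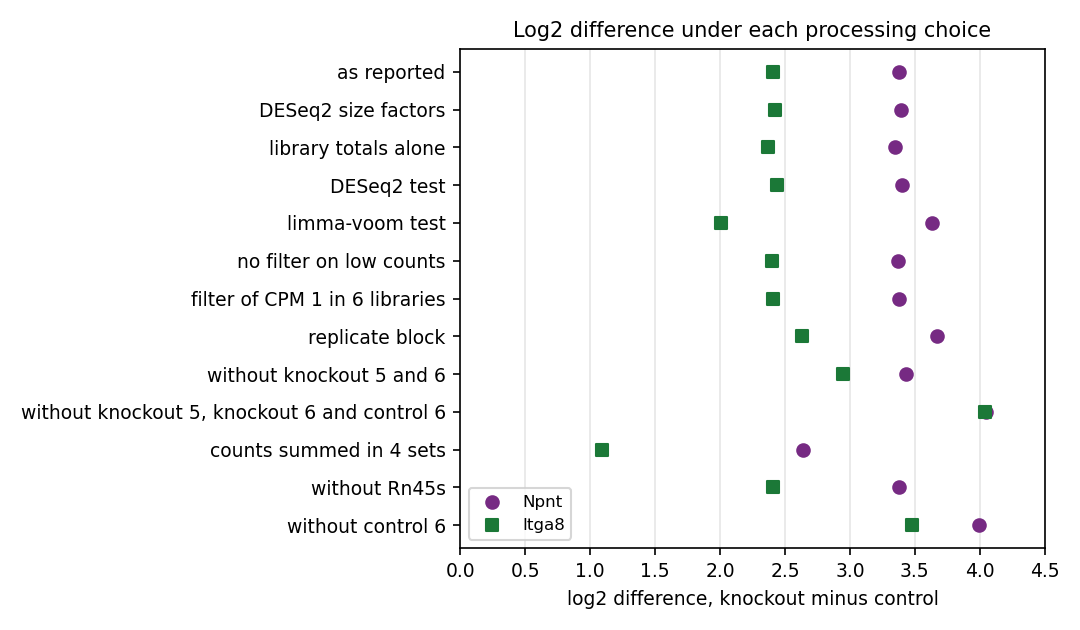
Log2 difference, knockout minus control, of Npnt (circles) and Itga8 (squares) under each processing choice named at the left. Npnt lies between 2.64 and 4.05, and Itga8 is lowest, at 1.09, where counts are summed in 4 sets and highest, at 4.04, where knockout 5, knockout 6 and control 6 are left out.

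The proportion of ligand to receptor transcripts separated knockout 5 and 6 from all other libraries. For every Itga8 count there were 2.91 to 3.82 Npnt counts in knockout 1 to 4 and 2.68 to 3.61 in control 1 to 5. The summed ratios of these sets were 3.31 and 3.28, although the level of each gene differed by a factor of over 16 between them. Control 6 had 1.81 Npnt counts per Itga8 count. Knockout 5 and 6 had 71.4 and 42.7, and 53.7 when summed. The members thus stood in nearly one proportion in 9 libraries, and in knockout 5 and 6 the ligand message was high while that of the alpha chain was low.

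**Figure D3:**
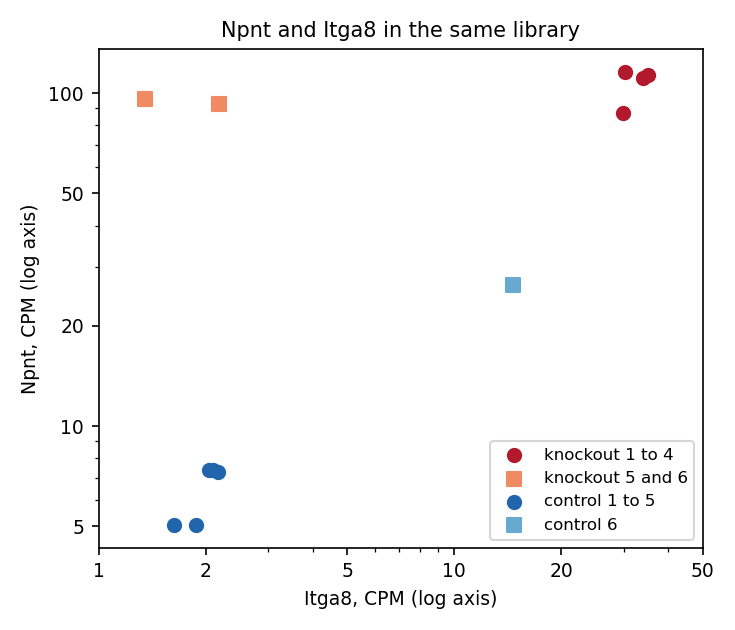
Npnt against Itga8 in the same library, both in CPM on log axes, with 1 point per library. Knockout 1 to 4 lie at the upper right, control 1 to 5 at the lower left and control 6 between them, while knockout 5 and 6 lie at the upper left with 96.3 and 92.8 CPM of Npnt and 1.35 and 2.17 CPM of Itga8.

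Rises of this size in the set patterns of the members were rare. Falls and other patterns were not counted. A mean at least 10 times that of control 1 to 5 in both knockout sets was found for 12 of 12146 genes (0.0988%). Npnt, Cd24a, Fst and Rassf6 were among them. The follistatin gene Fst had means of 121 and 159 CPM in the knockout sets and 7.6 CPM in control 1 to 5, and stood at 109 CPM in control 6. A mean of knockout 1 to 4 at least 10 times that of both control 1 to 5 and knockout 5 and 6 was found for 2 genes (0.0165%), Itga8 and Cemip. Cemip, whose protein takes part in hyaluronan breakdown, averaged 360 CPM in knockout 1 to 4 but 15.9 CPM in the other 2 knockout libraries, with 6.01 CPM in control 1 to 5 and 240 CPM in control 6. The factor of 10 and these names were chosen after the values had been seen.

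The genes whose log2 CPM followed each member most closely over the 12 libraries differed between the members. The Pearson r was 0.993 to 0.996 for the 5 nearest to Npnt, which were G3bp2, Pdlim5, Samhd1, Hmga2 and Arhgap10. Of these, Pdlim5, which encodes a PDZ and LIM domain protein of the actin cytoskeleton, had means of 542 and 501 CPM in the knockout sets, 163 CPM in control 1 to 5 and 318 CPM in control 6. The 5 nearest to Itga8 were Acta1, Chp1, Fkbp10, Gpc4 and Cyp1b1, with r of 0.990 to 0.993. Acta1, the skeletal muscle actin gene, averaged 137 CPM in knockout 1 to 4 but 19.7 CPM in the other 2, with 17.2 CPM in control 1 to 5 and 78.5 CPM in control 6. Gpc4, a cell surface heparan sulfate proteoglycan, had means of 442, 96.5, 120 and 360 CPM in the same order. Among the 10393 genes ranked, Itga8 ranked 2182 in likeness to Npnt, and Npnt ranked 1786 in likeness to Itga8 (r = 0.67). These r values describe 12 libraries that fall into 4 sets, and by Spearman correlation none of the 10 genes was among the 5 nearest.

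For reference, the sequences before the annotated starts of the genes are shown, since the members rose together in some libraries and apart in others. They are from RefSeq on GRCm38.p6, which held both members (for Itga8 the first 200 of the 250 bases before the start, for Npnt all 250), and are read 5′ to 3′ on the minus strand. Capitals mark every match, on either strand, to an E-box (CANNTG) in Itga8 and to a GC box (GGGCGG) in Npnt.
Itga8, chr2:12301995-12302194: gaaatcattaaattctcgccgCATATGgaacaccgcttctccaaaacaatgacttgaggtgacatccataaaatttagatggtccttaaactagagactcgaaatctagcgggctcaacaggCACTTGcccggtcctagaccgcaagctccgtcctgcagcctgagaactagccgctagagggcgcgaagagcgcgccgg
Npnt, chr3:132950292-132950541: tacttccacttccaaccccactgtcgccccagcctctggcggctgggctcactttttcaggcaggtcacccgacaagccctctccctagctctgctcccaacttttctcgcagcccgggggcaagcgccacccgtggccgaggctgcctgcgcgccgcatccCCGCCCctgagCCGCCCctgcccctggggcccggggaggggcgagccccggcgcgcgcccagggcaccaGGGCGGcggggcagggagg

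The windows differ in composition and in the letters they hold. Over the 250 bases before the start, GC content was 56.4% for Itga8 and 74% for Npnt, against a median of 52.4% over 32851 such windows. Itga8 had 2 E-box matches and no GC box, and Npnt had 3 GC boxes and no E-box. An E-box stood in 66.2% of all windows and a GC box in 32.7%. Neither window held a CArG box (in 1.47% of all windows), an NF-kB site (7.25%), an AP-1 site (TGANTCA, 6.75%), a SMAD element (CAGAC, 42.2%) or a TEAD site (GGAATG, 12.6%). A second annotated Npnt start, downstream of the first, had 2 E-boxes and 1 NF-kB site in its window. These are matches of letters, and the data hold no measure of binding.

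The beta1 chain Itgb1, the obligate partner of alpha8, rose from 1792 ± 458 CPM in control to 3153 ± 750 CPM in knockout (SD, n = 6 each). The log2 difference was 0.81 (SE 0.20), with an adjusted p of 0.00583 by edgeR's quasi-likelihood test. Here and below, rose and fell are used of genes past 0.05 in that test. With counts summed in the 4 sets the test called no gene at all, although 1047 of 13132 had an unadjusted p under 0.05. In Itgb1, as in Itga8, knockout 1 to 4 (mean 3634 CPM) lay above control 6 (2727 CPM) and control 6 above all others. Unlike Itga8, Itgb1 averaged higher in knockout 5 and 6 (2190 CPM) than in control 1 to 5 (1605 CPM). The groups overlapped for Itgb1. Per kilobase of the longest annotated transcript, Itgb1 was at 421 to 953 CPM per kb over the 4 sets and Itga8 at 0.303 to 5.57 CPM per kb, so the alpha8 message was the scarcer of the pair in all sets.

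Other RGD-binding integrin chains were measured beside Itga8, and of 6 tested, 3 rose, none fell and 3 did not pass the test (over all 12146 genes tested, 43.0% passed, 21.4% as higher and 21.6% as lower in knockout). The fibronectin receptor chain Itga5 rose by 1.83 on the log2 scale (SE 0.25; edgeR adjusted p = 0.000127), between means of 354 ± 184 and 1263 ± 85.2 CPM (SD, n = 6 each) and with no overlap between the groups. Itgav, the alpha chain of vitronectin receptors, rose from 295 to 673 CPM (1.19, SE 0.26). Like Itga8, its knockout 5 and 6 mean (403 CPM) was below control 6 (531 CPM). The differences of Itgb5 (-0.47), Itga2b (-0.16) and Itgb3 (-0.04) did not pass, and Itgb6 and Itgb8 were too low to be tested. Itgb3 passed as lower without knockout 5 and 6 (-0.26, edgeR adjusted p = 0.0251) and without these and control 6 (-0.22, edgeR adjusted p = 0.0176). The median difference over these 6 chains was 0.39.

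Alpha chains that share the beta1 partner without reading RGD gave 4 higher, 1 lower and 4 not past the test of 9. Their median difference was 0.61, and over all genes tested 21.4% were higher and 21.6% lower. The laminin receptor chain Itga6 rose by 1.84 (SE 0.08; edgeR adjusted p = 7.48e-08), between means of 28.9 ± 3.01 and 104 ± 4.27 CPM (SD, n = 6 each), and was alike in the knockout sets (104 and 103 CPM). The collagen receptor chain Itga1 rose from 12.9 to 34.6 CPM (1.42, SE 0.43), and it put the libraries in the order seen for Itga8, with means of 46.6 and 10.7 CPM in the larger and smaller knockout sets, 10.4 CPM in control 1 to 5 and 25.6 CPM in control 6. Itga3 and Itga9 rose by 0.61 and 0.63, while Itga2, another collagen receptor chain, fell by 1.02. By limma-voom the calls on Itga1 (adjusted p = 0.0532) and Itga3 (adjusted p = 0.059) were lost, which left 2 chains higher. Leaving out any single library of knockout 1 to 4 or control 1 to 5 ended the call on Itga3 (edgeR adjusted p = 0.0526 to 0.0704). Without control 6, the number of these chains called higher was 7. Without knockout 5, knockout 6 and control 6, it was also 7.

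Ranked per kilobase among the 13 alpha chains listed, Itga8 changed place with the set. It came at place 6 in knockout 1 to 4, between Itga3 and Itga1, and made up 1.19% of their summed level. It came last in knockout 5 and 6, with 0.0736%. In control 1 to 5 it came at place 12, with 0.243%, and in control 6 at place 8, with 0.765%. Itga5 and Itgav led in all 4 sets, so alpha8 was a minor alpha chain even where it was highest.

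Of the other known ligands of alpha8beta1, 5 could be tested. Of these, 1 rose, 3 fell and 1 missed the threshold, with a median difference of -0.57. Over all genes tested, 21.4% rose and 21.6% fell. Osteopontin, Spp1, fell by 2.19 on the log2 scale (SE 0.22; edgeR adjusted p = 2.33e-05), between means of 1773 ± 85.6 and 388 ± 157 CPM (SD, n = 6 each) and with no overlap between the groups (12.5% of tested genes had all knockout libraries below all controls). Tgfb1, whose latency peptide carries an RGD sequence, fell from 83.3 to 56 CPM (-0.57, SE 0.12), and Frem1, a basement membrane protein, from 2.32 to 1.04 CPM (-1.18, SE 0.29). Tenascin C, Tnc, rose from 1218 to 2422 CPM (0.99, SE 0.30), but control 6 (2890 CPM) was above every knockout library. Fibronectin, Fn1, did not pass (-0.27, SE 0.43), with 13870 CPM in knockout 1 to 4 against 3102 CPM in knockout 5 and 6, and its difference turned to 0.16 without knockout 5 and 6. Without these and control 6, Fn1 passed as higher (0.43, edgeR adjusted p = 0.00128), which made 2 ligands higher. Npnt had the largest difference upward in this list, but it was picked with that difference already known, so its place is no result. Its close relative Egfl6, and Vtn, had at most 2 counts in any library.

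Per kilobase of the longest annotated transcript, Npnt remained below the abundant ligands. It was at 23.1 CPM per kb in knockout 1 to 4, 20.5 in knockout 5 and 6, 1.39 in control 1 to 5 and 5.73 in control 6. Fn1 was at 373 to 2757 CPM per kb over the sets, Spp1 at 191 to 1189 and Tnc at 124 to 407. Tgfb1, at 22.3 CPM per kb in knockout 1 to 4 and 38.8 in control 1 to 5, was near Npnt in the former and above it in the latter. Annotated Npnt coding transcripts run from 1779 to 4619 bases, and with the shortest the Npnt levels were 60, 53.1, 3.62 and 14.9 CPM per kb, still below those 3 ligands in every set.

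**Figure D4:**
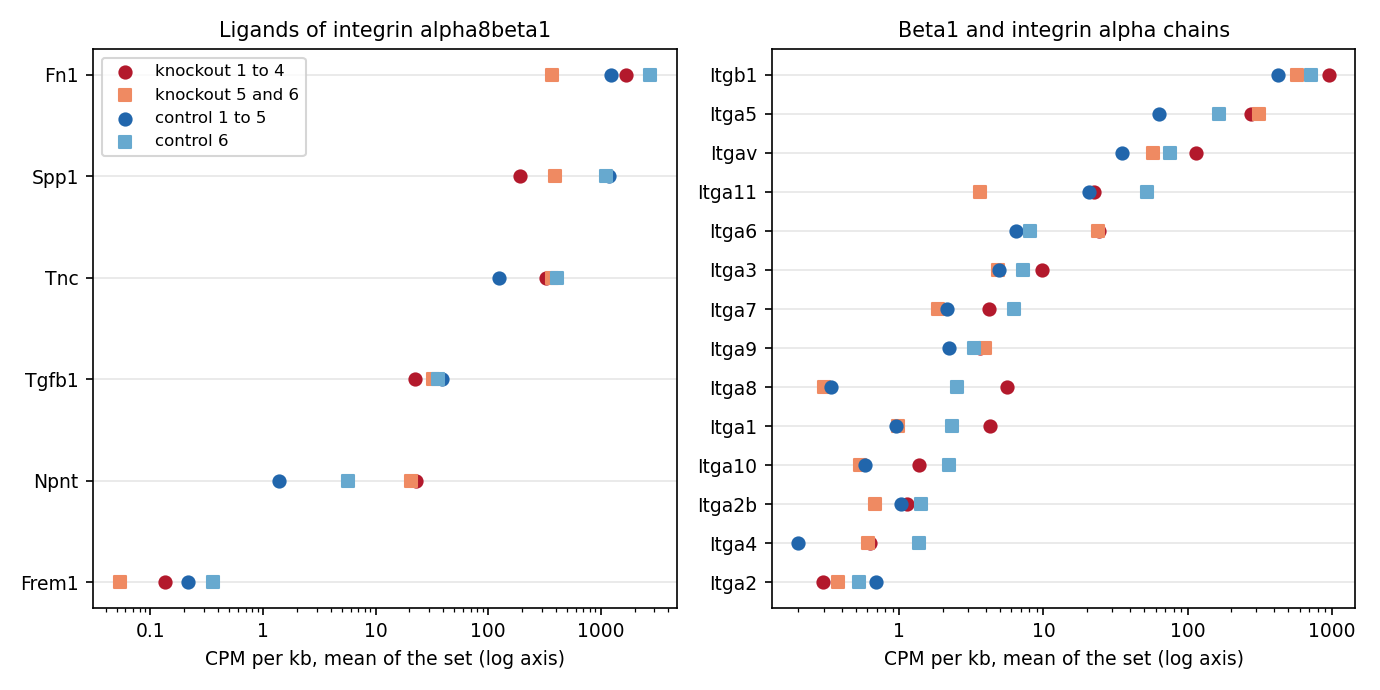
Mean level per kilobase of transcript in each of the 4 sets, in CPM per kb on log axes, for ligands of integrin alpha8beta1 (left) and for beta1 and the alpha chains (right); Egfl6 and Vtn, with at most 2 counts, are not drawn. Npnt spans 1.39 to 23.1 and Itga8 spans 0.303 to 5.57 CPM per kb, below Fn1 and Itgb1 in every set.

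Nephronectin is held in basement membranes by other matrix proteins. Of 11 basement membrane genes tested, none rose, 3 fell and 8 did not pass. The median difference was 0.20, and over all genes tested 21.4% rose and 21.6% fell. The heparan sulfate proteoglycan agrin, Agrn, fell from 204 to 65.1 CPM (-1.64, SE 0.19), collagen XVIII, Col18a1, from 112 to 24.5 CPM (-2.19, SE 0.32) and the laminin chain Lama4 from 158 to 57.6 CPM (-1.46, SE 0.17). Perlecan, Hspg2, and nidogen 1, Nid1, did not pass (0.48 and 0.51). The number called higher in this list was 3 without control 6, 1 without either knockout 5 or knockout 6, 5 without both and 7 without all 3 of these libraries. The Fraser complex genes Fras1, Frem2, Frem3 and Grip1 were too low to be tested.

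Of the proteins that link beta1 integrins to actin, 14 could be tested. Of these, 9 rose, 1 fell and 4 missed the threshold, with a median difference of 0.51. Over all genes tested, 21.4% rose and 21.6% fell. Kindlin 2, Fermt2, rose by 1.26 (SE 0.15), between means of 217 ± 59.5 and 522 ± 43.1 CPM (SD, n = 6 each), and integrin-linked kinase, Ilk, from 190 to 335 CPM (0.82, SE 0.12). Vinculin, Vcl, rose from 593 to 1427 CPM (1.27, SE 0.39), but control 6, at 1500 CPM, was above the 766 CPM mean of knockout 5 and 6. The scaffold gene Bcar1 (1.03) and tensin 1, Tns1 (1.40), also rose, and the blood cell kindlin Fermt3 fell from 1.96 to 1.09 CPM. For Tns1, as for Vcl, control 6 (564 CPM) was above the mean of knockout 5 and 6 (431 CPM).

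GDNF, the growth factor that nephronectin and alpha8beta1 sustain in the kidney, was near the detection limit here. Gdnf averaged 1.07 ± 0.76 CPM in knockout and 1.48 ± 0.424 CPM in control (SD, n = 6 each; difference -0.42, not past the test), with 0.596 CPM in knockout 1 to 4 against 2.02 CPM in the other 2. Of the 6 genes of this axis tested, 1 rose (Gata3), 2 fell (the receptor genes Ret and Gfra1) and 3 did not pass. Their median difference was 0.07, and over all genes tested 21.4% rose and 21.6% fell. Ret fell from 3.71 to 2.01 CPM (-0.87, SE 0.22) and Gfra1 from 13.7 to 7.74 CPM (-0.81, SE 0.28). The call on Gfra1 ended in the same 9 fits as that on Itga3 (edgeR adjusted p = 0.0501 to 0.0676). Without knockout 5 and 6, Gdnf passed the test with a difference of -1.27.

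Markers of contractile cells moved with Itga8 in part. Summed over 8 smooth muscle markers, the level was 2407 to 2490 CPM in knockout 1 to 4 and 956 to 981 CPM in the other 2 knockout libraries. It was 526 to 613 CPM in control 1 to 5 and 1258 CPM in control 6. Of the 7 tested, 5 rose and 2 did not pass (over all genes tested, 21.4% rose and 21.6% fell). In 3 of them (Myh11, Cnn1 and Actg2), as in Itga8, knockout 1 to 4 lay above control 6 and control 6 above all others. Unlike Itga8, Cnn1 and Actg2 averaged higher in knockout 5 and 6 than in control 1 to 5. Their means were 168 against 86.6 CPM and 452 against 313 CPM. The smooth muscle myosin gene Myh11 averaged 261 CPM in knockout 1 to 4 but 18.8 CPM in the other 2, with 28.3 CPM in control 1 to 5 and 120 CPM in control 6. Npnt, at 96.3 and 92.8 CPM in knockout 5 and 6, did not share that drop. The smooth muscle markers differed among themselves in this. Lmod1 averaged 216, 152, 32.5 and 128 CPM over the same 4 sets and had the library order of Npnt. Smtn averaged 121, 123, 55.1 and 118 CPM. The 7 pericyte markers summed to 393 to 440, 168 to 185, 170 to 176 and 284 CPM in the same 4 sets. Of 6 pericyte markers tested, Mcam and Cspg4 rose, Ndufa4l2 fell from 43.5 to 3.03 CPM (-3.87, SE 0.30) and 3 did not pass. The 7 macrophage markers summed to 34.3 to 38.4, 40.7 to 48.8, 70.9 to 82.6 and 120 CPM, and 5 of them fell and 2 did not pass. Of those that fell, Adgre1 (0.89 CPM in knockout, 2.47 in control), Itgam (0.593 and 2.79) and Tyrobp (0.981 and 2.83) were low in both groups. Cd68 (3.29 and 7.71) and Lyz2 (29.7 and 60.9) were higher. The 8 myofibroblast markers summed to 31436 to 32010, 13165 to 13243, 21630 to 22764 and 31952 CPM. Of these, Acta2, Tagln and Vim rose, Pdgfra fell and 4 did not pass. The shares over all genes given above for smooth muscle markers apply to the pericyte, macrophage and myofibroblast counts too. Endothelial markers summed to 5.28 to 11.3 CPM over all libraries, enteric glial markers to 0.207 to 6.94 CPM and mesothelial markers to 2.02 to 7.68 CPM. The part of these cell types in the levels of Npnt and Itga8 was not tested.

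**Figure D5:**
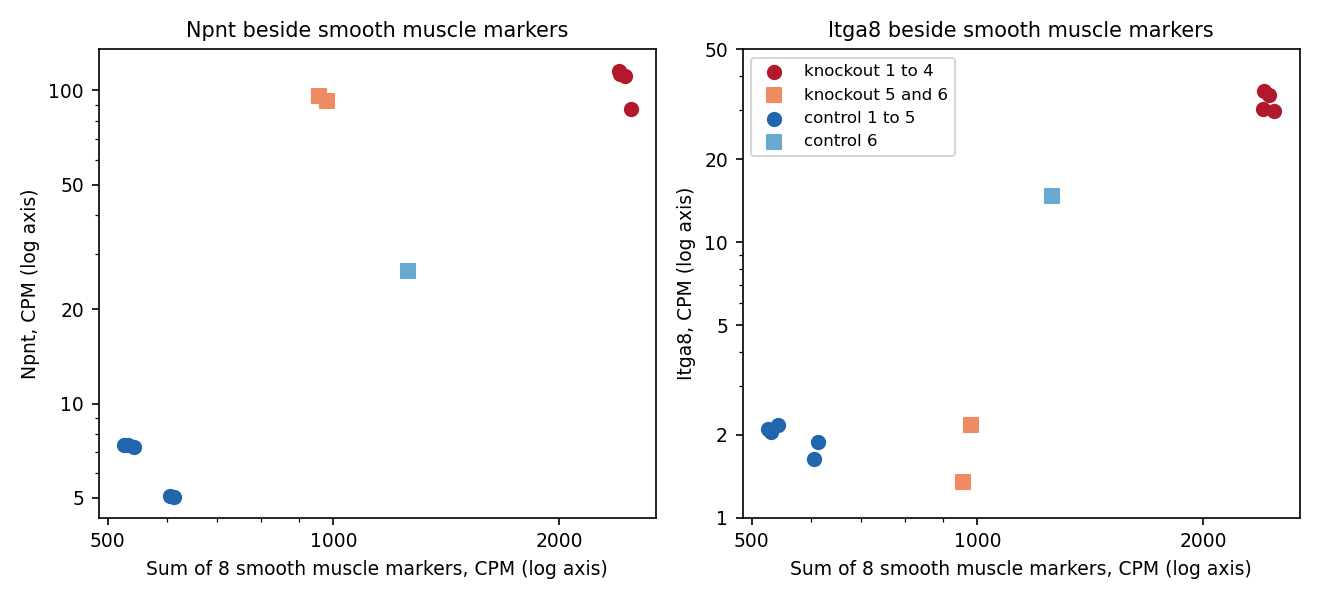
Npnt (left) and Itga8 (right) against the summed level of 8 smooth muscle markers, in CPM on log axes, with 1 point per library. Knockout 5 and 6, at 956 and 981 CPM of markers, lie with the high libraries for Npnt and with the lowest libraries for Itga8.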

How the data were processed

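The authors deposited expected counts per gene symbol (RSEM estimates, some with decimals) for 12 libraries. Per the submitters' processing notes the tools included Bowtie2 2.1.0 and RSEM 1.2.15. A human build also stands in those notes although the symbols are mouse ones, which leaves the build in doubt. The sources used here give no annotation release and no strand setting. An annotated antisense gene of Itga8 (E030013I19Rik) had at most 1 count in any library. Counts were rounded. The groups were compared in R 4.3.3 with edgeR 4.0.16 (quasi-likelihood test, 12 libraries, genotype as the only term) after filterByExpr (minimum count 10, minimum total 15) and trimmed mean of M-values scaling. P-values were Benjamini-Hochberg adjusted over 12146 genes (threshold 0.05). Each SE of a log2 difference was derived from that fit, as the absolute difference divided by the square root of the quasi-likelihood F statistic. The script was tested on simulated data. CPM use scaled library sizes, and log2 CPM a prior count of 2. Lengths are from GENCODE M21. Libraries were joined into sets at a rank correlation over 0.98. The members, lists and tests were chosen with earlier results of these data known. Besides the members, any tested gene of 6 lists could be named, with Tnfrsf1a, genes of the cell type marker lists (those given by name were picked after their values were seen), the 5 genes most like each member (mean log2 CPM of at least 2, predicted genes passed over) and genes said to be chosen afterwards. DESeq2 1.42.0 and limma 3.58.1 gave alternatives.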

Additional observations from a re-analysis of the deposited data

Results flagged for a closer look

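In all, 70 groups of 6 libraries were looked at (35 genes in knockout and control). In 24 of them, 1 library lay apart from the other 5 by more than Dixon's 95% limit. Chance alone passes that limit in about 5% of independent groups. These genes shared the same libraries and were chosen with earlier results known, so that rate is no reference for the 24. Control 6, already a set by itself, was the library apart in 22 of the 24. It was the highest control for Npnt (26.5 CPM) and Itga8 (14.6 CPM). Among integrin chains it was highest for Itgb1 (2727 CPM), Itga5 (728), Itgav (531), Itgb5 (661), Itga1 (25.6), Itga6 (34.5), Itga9 (23.3) and Itga11 (260). Among matrix genes it was highest for Fn1 (22927 CPM), Tnc (2890), Hspg2 (2459) and Nid1 (2821), and among adhesion genes for Fermt2 (338), Ilk (256), Bcar1 (116), Tns1 (564) and Vcl (1500). It was the lowest control for Tnfrsf1a (54.9 CPM), Col18a1 (65.2) and Gfra1 (8.52). Knockout 3 was the lowest knockout library for Tnc (1875 CPM) and Itga2 (1.42 CPM).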

How the results depend on the processing

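Over 12 fits that left out 1 library each, the log2 difference ran from 3.25 to 3.99 for Npnt and from 2.23 to 3.48 for Itga8, and 2148 to 3092 genes were called higher and 2270 to 2977 lower (2597 and 2622 as reported). Without knockout 5, knockout 6 and control 6 together, 4319 and 4508 genes were called and the Npnt difference was 4.05. With counts summed in 4 sets, edgeR called 0 higher and 0 lower of 13132 genes, with 1047 at an unadjusted p under 0.05, and the Npnt difference was 2.64; no other tool was run on the sums. The labels do not say that a replicate number marks a shared animal or batch, and same-numbered libraries correlated at -0.364 to 0.184 in their deviations, with 0 of 12 closest to their own number. A replicate block gave 1867 higher and 2107 lower calls, with the calls on Itga1, Itga3 and Gfra1 lost (adjusted p = 0.081, 0.106 and 0.0601), and differences of 3.67 for Npnt and 2.63 for Itga8. Values that changed sign were Itgb3 (0.02, 0.01 and 0.00 without knockout 1, 3 or 4, in a range of -0.14 to 0.02 over single libraries left out), Fn1 (0.16) and Itga2b (0.06) without knockout 5 and 6, Fn1 (0.43), Itga2b (0.16) and Itga11 (0.11) without these and control 6, and Hspg2 (-0.30) and Gdnf (0.06) with summed sets; the cause was not tested. Low counts limit Itga8 in 7 libraries with 13 to 31 counts.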
